A study of Mus musculus with 8 samples.

Results

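Rbm20 encodes a splicing factor of heart and skeletal muscle, and this account describes where SRSF3 was crosslinked along its transcript in newborn mouse cardiomyocytes. The gene was taken as chromosome 19 from 53750001 to 53945000 on the plus strand of the mm9 genome, a stretch of 195000 nt, and its members were all single nucleotide positions listed there. These were 2482 of 769652 positions in replicate 1, 6282 of 2093525 in replicate 2, and 10319 of 3846902 in the merged track. The members were chosen by position and strand, and the stretch and a border that separates its first 100 kb from the remaining 95 kb were set with the cDNA counts of these tracks known. The level over the stretch and the step at the border are therefore given as a description, with no test. Tests were made on differences between libraries alone, and the choice of the stretch can bear on those against the other libraries of the merged track.

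The samples were neonatal cardiomyocytes of C57BL/6 mice at P0 or P1, plated and transfected with SRSF3-GFP modRNA (15 µg per dish). At 48 h the cells received 100 mJ of UV (254 nm), and 2 iCLIP replicates were made. iCLIP maps crosslinked nucleotides by precipitating the protein, here through its green fluorescent protein tag, and reading where reverse transcription stopped. The bound protein was thus a tagged copy made from transfected RNA, in cells that also hold their own SRSF3. The series also holds adult hearts of SRSF3flox/flox;alphaMHC-CreERT2 mice (3) and of alphaMHC-CreERT2 control mice (3), all given 4-hydroxytamoxifen; these were not analysed here.

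RBM20 carries an RNA recognition motif and a stretch rich in arginine and serine. It binds pre-mRNAs of titin and of calcium handling genes in the nucleus and keeps selected exons out of the mature mRNA. Mutations in it cause dilated cardiomyopathy. SRSF3 is a short SR protein that binds pre-mRNA and mRNA and acts in exon choice, 3' end processing and export. Crosslinks inside a gene can fall on exons or on introns before these are removed.

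The 2 replicates listed 815414 and 2253688 cDNAs, so replicate 2 was 2.76 times as deep, and a count of 0 allows up to 3.68 and 1.33 cDNAs per 1000000 cDNAs sequenced (CPM). Intervals and limits here cover counting error only. There was no control precipitation and no RNA measurement from these cells, so cDNAs were not corrected for background or RNA abundance, and fewer cells with the transcript cannot be told apart from less transcript per cell. No gene annotation of mm9 was used, so cardiomyocyte markers were not read from the tracks and the exons of Rbm20 were not placed on them. Whether the replicates were separate cultures is not stated in the labels, so differences between them may be technical. P-values between them cover counting error only and measure no spread between libraries or cultures.

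Rbm20 was among the most heavily crosslinked long stretches of the genome. It held 2575 cDNAs in replicate 1, or 3158 CPM (exact Poisson 95% interval 3037 to 3282), and 6829 in replicate 2, or 3030 CPM (2959 to 3103). The mean was 3094 ± 90.3 CPM (SD, n = 2). When each strand of each chromosome was cut into tiles of the same length from position 1, 7 of the 26253 tiles with a cDNA stood higher, and the median tile held 3.78 CPM. The tiles follow a fixed grid and the Rbm20 stretch was fitted to its signal, which favours Rbm20 in this ranking.

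Nearly all the signal lay on the strand of Rbm20. The plus strand held 99.4% of the cDNAs of the stretch in replicate 1 (Wilson 95% interval 99.0% to 99.6%) and 99.7% in replicate 2 (99.5% to 99.8%). On the minus strand there were 15 and 20 cDNAs. This share stands beside 96.7% and 96.6% on the plus strand over the same length before the stretch, and 91.6% and 92.8% over the same length after it, where counts were far lower.

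The signal rose sharply at the start of the stretch and faded over its end. The first 5 kb bin inside the stretch held 124 cDNAs in replicate 1 and 334 in replicate 2, against 36 and 92 in the last bin outside it. A low shoulder reached further upstream. From 53735001 to 53750000 there were 84 and 232 cDNAs, or 6.87 ± 0.0034 CPM per kb (SD, n = 2), and in the 15 kb before that 6 and 24 cDNAs, or 0.600 ± 0.16 CPM per kb. These borders were chosen after the values were seen. At the 3' end the last 5 kb bin inside held 13 and 36 cDNAs, and the first bin outside, 53945001 to 53950000, still held 20 and 58. The next bins held 10 and 21, then 2 and 8. Over the whole stretch the level was 15.9 ± 0.46 CPM per kb, against 1.07 ± 0.035 over the same length before it and 0.869 ± 0.025 after it (SD, n = 2).

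**Figure D1:**
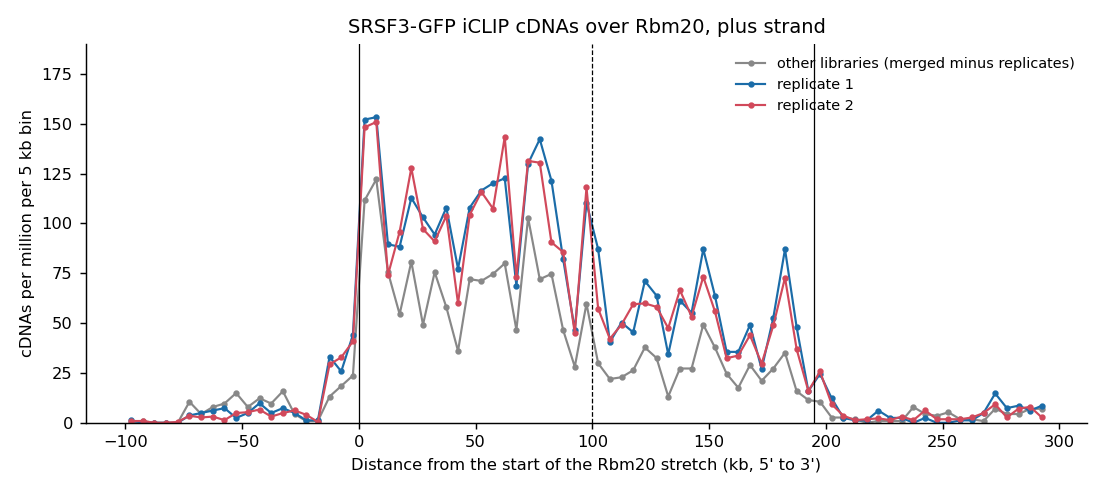
CPM in 5 kb bins on the plus strand (vertical axis) against distance in kb from the start of the Rbm20 stretch (horizontal axis), with 100 kb of flank on either side. Grey shows the other libraries of the merged track, blue replicate 1 and red replicate 2; solid lines mark the ends of the stretch and the dashed line its border at 100 kb. Both replicates reach about 150 CPM in the first pair of bins, stay mostly above 70 CPM up to the border, and stay below 90 CPM after it.

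Within Rbm20 the first 100 kb carried about 2 times the density of the rest. It held 1751 cDNAs in replicate 1 and 4718 in replicate 2, against 824 and 2111 in the last 95 kb. Per kb this was 21.2 ± 0.38 CPM in the first 100 kb and 10.2 ± 0.55 CPM in the rest (SD, n = 2). The density ratio was 2.02 in replicate 1 and 2.12 in replicate 2, a mean of 2.07 ± 0.074 (SD, n = 2). The first 100 kb made up 51.3% of the length and held 68.0% of the cDNAs of replicate 1 (Wilson 95% interval 66.2% to 69.8%) and 69.1% of those of replicate 2 (68.0% to 70.2%). The middle cDNA lay 72.9 kb from the start in replicate 1 and 70.6 kb in replicate 2.

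The replicates did not differ in this share beyond counting error. The odds ratio of replicate 1 over replicate 2 for lying in the first 100 kb was 0.951 (95% interval 0.862 to 1.05, p = 0.318, two-sided Fisher's exact test). This test takes each cDNA as independent and compares 2 libraries at a border set with their counts known. The difference in density was a shift of most bins and was not carried by a few of them. The 20 bins of 5 kb in the first 100 kb ranged from 46.6 to 153 CPM in replicate 1 (median 109) and from 44.8 to 151 CPM in replicate 2 (median 104). The 19 bins of the rest ranged from 15.9 to 87.1 CPM in replicate 1 (median 50.3) and from 16.0 to 73.2 CPM in replicate 2 (median 49.3). The ranges overlapped: 16 of the 20 bins in replicate 1 and 17 in replicate 2 stood above the highest bin of the rest.

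**Figure D2:**
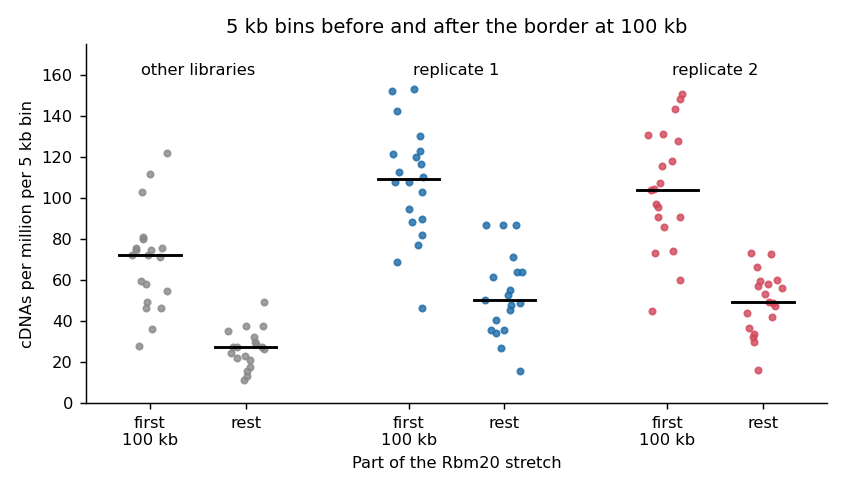
Each point is the value of a 5 kb bin in CPM, for the first 100 kb (20 bins) and the rest (19 bins) of the Rbm20 stretch, in the other libraries, replicate 1 and replicate 2; black bars are medians. The medians of the first 100 kb are 72.0, 109 and 104 CPM, and those of the rest 27.2, 50.3 and 49.3 CPM, with some overlap of the points in every library.

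The decline was not a smooth slope. The 5 highest bins all lay in the first 80 kb. Bins starting at 53750001 and 53755001, the first pair of the stretch, held 150 ± 2.7 and 152 ± 1.7 CPM (SD, n = 2). A second high region lay 60 to 80 kb in, where the bins starting at 53810001, 53820001 and 53825001 held 133 ± 15, 131 ± 0.95 and 136 ± 8.3 CPM. Between those sat a lower bin, 53815001 to 53820000, with 70.9 ± 3.2 CPM. The lowest bin of the first 100 kb started at 53840001 and held 38 and 101 cDNAs, or 45.7 ± 1.3 CPM.

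At the border itself the bin before it, from 53845001, held 90 cDNAs in replicate 1 and 266 in replicate 2, and the bin after it, from 53850001, held 71 and 129. In the rest the highest bins started at 53895001 and 53930001, with 80.1 ± 9.8 and 79.9 ± 10 CPM (SD, n = 2). The 5 lowest bins of the stretch all lay there. That from 53880001 held 40.9 ± 9.3 CPM, those from 53905001 and 53910001 held 34.0 ± 2.2 and 34.6 ± 1.3 CPM, and those from 53920001 and 53940001, the last of the stretch, held 28.4 ± 1.9 and 16.0 ± 0.022 CPM. Even the lowest 5 kb bin, with 13 and 36 cDNAs, stood far above the median of the longer 10 kb windows. That median was 0.613 CPM, over the windows of the genome with a cDNA in either replicate.

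At a finer scale the transcript was covered almost without a break. All but 1 of its 1 kb bins, 194 in number, held cDNAs in both replicates, and none was empty in the merged track. The exception was 53889001 to 53890000, with 0 cDNAs in replicate 1, which allows up to 3.68 CPM, and 7 in replicate 2. The highest 1 kb bin, 53752001 to 53753000, held 41 and 120 cDNAs. The median bin held 16.5 cDNAs in replicate 1 and 45 in replicate 2 in the first 100 kb, against 7 and 21 in the rest. In the merged track the median distance between neighbouring positions left 8 nt uncovered, and a single gap exceeded 500 nt. It ran over 897 nt from 53941281 to 53942177, near the 3' end. Of the 10 longest gaps 7 lay in the rest.

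Counts per 1 kb bin varied more than counting error alone would give, in both replicates alike. The variance was 5.47 times the mean in replicate 1 and 14.0 times in replicate 2 over the whole stretch, and 4.27 and 10.9 times within the first 100 kb, where counting error alone gives about 1. This multiple rises with depth, and replicate 2 was 2.76 times as deep, so it does not show which replicate was more uneven. The replicates followed each other from bin to bin, with r = 0.848 (Pearson) and rho = 0.862 (Spearman) for log2(cDNAs + 1) over all 1 kb bins. These are descriptions across neighbouring bins of 1 transcript, which share mappability and base composition. Within the first 100 kb the Pearson r was 0.832, and within the rest 0.742.

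Exons of GENCODE M21 could hold only a small share of this signal. In GENCODE M21, on GRCm38, Rbm20 (ENSMUSG00000043639.15) lies on the plus strand of chromosome 19, is 189775 nt long and has 3 transcripts. The one with the most exons has 14 of them and 4892 nt after splicing, and its first intron alone is 135655 nt, 71.5% of the gene. RefSeq gives the gene 206095 nt on the same build, 16320 more. These coordinates belong to another build and were not carried over to mm9, so lengths alone were used. Joined over all transcripts the exons form 16 pieces and 6790 nt, 3.48% of the length of the stretch. If pieces of these lengths were placed, in their order, wherever they would catch the most cDNAs, they would hold 13.0% of the cDNAs of replicate 1, 12.3% of those of replicate 2 and 11.6% of those of the merged track. At least 87.0%, 87.7% and 88.4% of the cDNAs thus lay outside the exons of GENCODE M21, given that exon lengths are the same in both builds. Exons of RefSeq were not used here.

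Most positions of Rbm20 held a single cDNA, and none held more than 8. In replicate 1, 96.4% of its positions held a single cDNA (Wilson 95% interval 95.6% to 97.1%), close to the 96.9% of the whole track. In replicate 2 the share was 92.5% (91.8% to 93.1%), against 95.9% in the whole track, and in the merged track it was 89.8% (89.2% to 90.4%), against 95.2%. Positions with 3 or more cDNAs made up 0.081% of the positions of the stretch in replicate 1, against 0.677% in the whole track. In replicate 2 they made up 0.907%, against 0.763%, and in the merged track 1.38%, against 0.864%. Relative to the whole track they were thus less frequent in replicate 1 and more frequent in replicate 2 and the merged track. The share in replicate 1 rests on 2 positions of 2482, against 57 in replicate 2 and 142 in the merged track. Such repeated hits also become more frequent with depth, so the opposite directions were not read as a trait of Rbm20. The strongest position of the stretch, 53785181, held 2 cDNAs in replicate 1 and 6 in replicate 2, and 8 in the merged track, which is 0.0692% of the cDNAs there. The highest position in the whole merged track held 526 cDNAs.

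The other strongest positions had 5 or 6 cDNAs in the merged track. Of the 12 positions with 5 or more, 11 lay in the first 100 kb, and 8 were found in both replicates. Among them, 53804965 held 2 cDNAs in replicate 1 and 2 in replicate 2, and 53831008 held 2 and 3. The only one in the rest, 53915496, held 1 and 4. Position 53811661 held 0 and 6, and its neighbour 53811660 held 1 and 4. The highest count of replicate 1, 4 cDNAs at each of 53778704 and 53790584, was matched by 0 cDNAs of replicate 2 at the same nucleotides and by 1 and 0 within 5 nt. In the whole track 893 of the 928 replicate 1 positions with 4 cDNAs, or 96.2%, were also listed in replicate 2. With only 2 such positions in Rbm20, a count of 0 allows a share of up to 100%, so no difference was read from them.

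Positions with 3 or more cDNAs in the merged track numbered 121 in the first 100 kb and 21 in the rest, or 1.21 and 0.221 per kb. They made up 1.71% of the positions of the first 100 kb and 0.647% of those of the rest, on either side of the 0.864% of the whole merged track. Both replicates contributed to 56 and 6 of them. Denser cover alone makes repeated hits of a nucleotide more frequent, so these counts are not independent of the density.

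Short clusters of cDNAs were spread over the transcript. Clusters were runs of merged positions at most 15 nt apart with at least 10 cDNAs. There were 197, of 10 to 277 nt (median 53 nt), 189 of them with cDNAs of both replicates. With at least 10 cDNAs a cluster is likely to draw on both replicates anyway, so this count does not measure their agreement. The clusters covered 6.29% of the length and held 28.3% of the cDNAs of the merged track. A larger share of cDNAs than of length follows from how clusters were defined. The first 100 kb had 172 and the rest 25. A fixed gap and minimum pick out more clusters where cover is denser, so these numbers too follow the density.

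The largest cluster ran from 53811511 to 53811787, 61.5 kb into the stretch, over 277 nt. It held 23 cDNAs in replicate 1 and 82 in replicate 2, and 121 in the merged track on 80 positions. The second, 53795533 to 53795764, held 15 and 48 cDNAs over 232 nt. The third, 53757587 to 53757726, held 10 and 36 over 140 nt.

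With 4 clusters tied at the tenth place, the largest were 12, and all of them lay in the first 100 kb. The remaining 9 held 31 to 47 cDNAs in the merged track, 3 to 14 in replicate 1 and 15 to 24 in replicate 2. A cluster of 59 nt from 53830972 to 53831030 was the most compact of the 12, with 54.2 cDNAs per 100 nt in the merged track, against 43.7 in the largest. It also holds position 53831008, and the largest cluster holds positions 53811660 and 53811661. A smaller cluster from 53812036 to 53812146, with 5 and 21 cDNAs, lay just downstream of the largest.

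Exact positions recurred between the replicates in a larger share of cases in Rbm20 than in the track as a whole, and cover was denser there too. Of the 2482 replicate 1 positions, 264 were listed in replicate 2, which is 10.6% of replicate 1 (Wilson 95% interval 9.48% to 11.9%) and 4.20% of replicate 2. In the whole track 5.02% of replicate 1 positions recurred. Replicate 2 listed 3.22% of the nucleotides of the stretch. The share was 12.7% in the first 100 kb, where replicate 2 listed 4.30% of nucleotides, and 6.34% in the rest, where it listed 2.08%. Positions with 2 cDNAs in replicate 1 recurred in 21.8% of cases (19 of 87, 14.5% to 31.6%), against 24.2% in the whole track. All 19 lay in the first 100 kb, 28.4% of the 67 there (19.0% to 40.1%), against 0 of 20 in the rest, which allows a share of up to 15%.

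Recurrence was sharply centred. For replicate 1 positions at least 1000 nt inside the stretch, 10.6% had a replicate 2 position at the same nucleotide. At each distance of 1 to 5 nt downstream it was 7.50% on average, at 6 to 10 nt 5.74%, at 11 to 30 nt 4.95%, at over 100 and up to 200 nt 4.48%, and at over 500 and up to 1000 nt either way 3.85%. The same nucleotide thus stood at 2.76 times the level over 500 nt away, and 1 to 5 nt downstream at 1.95 times. Relative to that level the peak was alike on both sides of the border, 2.72 times in the first 100 kb and 2.67 times in the rest. It was also similar upstream, 1.86 times at 1 to 5 nt.

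**Figure D3:**
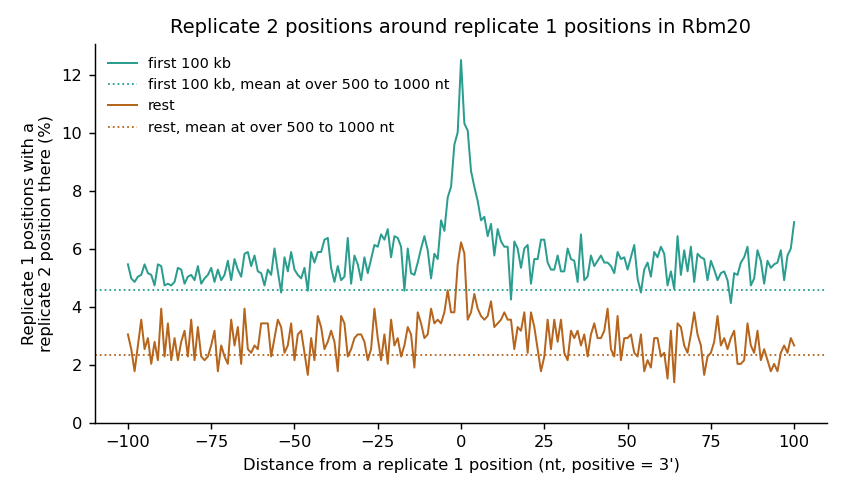
Share of replicate 1 positions in Rbm20 (%, vertical axis) that had a replicate 2 position at each distance from 100 nt upstream to 100 nt downstream (horizontal axis), for the first 100 kb and for the rest; dotted lines are the means at over 500 and up to 1000 nt. Both curves peak at distance 0, at 12.5% in the first 100 kb and 6.22% in the rest, over dotted levels of 4.59% and 2.33%.

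No 10 kb window of Rbm20 was called as different between the replicates. Of the 13920 windows of the genome with at least 50 cDNAs over both replicates, 13 (0.0934%) were called, 2 of them (0.0144%) as lower in replicate 1. Each was tested by a two-sided exact binomial test with the library totals as the expectation, and p-values were adjusted after Benjamini-Hochberg (5% false discovery rate). None of the 19 whole windows in the stretch was among them, and 1 had an unadjusted p under 0.05. That window, the first after the border (from 53850001), held 104 and 224 cDNAs, with a log2 ratio of replicate 1 over replicate 2 of 0.36 (exact 95% interval 0.01 to 0.70, adjusted p = 0.855, exact binomial test). Over the 19 windows the log2 ratios ran from -0.25 to 0.36 with a median of 0.07, and the median of all tested windows was 0.01. All 19 ranked between 72 and 780 of the 237938 windows with a cDNA in either replicate, that is within the top 0.328%.

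The other libraries of the merged track gave less Rbm20 signal per cDNA. The header of that track names 5 libraries, the 2 replicates and 3 more with other library identifiers. The excess of the merged track over the replicates is called the other libraries here. They have no sample label, so the values compare libraries and not conditions. They held 2162 cDNAs in the stretch, or 1899 CPM (exact Poisson 95% interval 1820 to 1981), against 3064 CPM (3002 to 3127) in replicates 1 and 2 together. Over the same length before the stretch they held 191 CPM (166 to 218), against 206 CPM (190 to 223) in the replicates. Over the same length after it they were lower too, with 118 CPM (98.6 to 139) against 168 CPM (154 to 183), and in the 15 kb just before the stretch they held 55.3 CPM (42.5 to 70.8) against 103 CPM (91.9 to 115). The lower level was thus also seen just before the stretch and over the length after it. Over the same length before it the intervals overlapped, but that length joins parts that differ. Its last 15 kb gave 63 of the 217 cDNAs of the other libraries and 316 of the 633 of the replicates. Further upstream, on few cDNAs, the other libraries were higher in every 5 kb bin from 53675001 to 53720000. From 53680001 to 53685000 they held 4.39 CPM, against 3.26 CPM in the replicates, and from 53695001 to 53700000 14.9 CPM, against 4.24 CPM. From 53715001 to 53720000 they held 15.8 CPM, against 5.54 CPM in the replicates. From 53720001 to 53735000 they held 6.15 CPM, against 9.77 CPM.

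All 19 windows were lower in the other libraries. Log2 ratios of the other libraries over the replicates ran from -1.43 to -0.36, with a median of -0.73, and every window was called (exact binomial test, 5% false discovery rate). Of all 21841 windows with at least 50 merged cDNAs, 27.9% were called in either direction and 13.4% as lower in the other libraries, with a median log2 ratio of -0.12. The windows of Rbm20 are deep, and such windows were lower more often. Of the 2033 windows with at least 200 merged cDNAs, a minimum chosen after the data were seen, 70.3% were called in either direction. As lower 48.5% were called, and the median was -0.49. Of those windows 32.4% were at or below the median of the Rbm20 windows. The replicates gave 3069102 of the 4207555 merged cDNAs, so a minimum on merged cDNAs favours windows that are high in the replicates. Setting the Rbm20 stretch with these counts known leans the same way. The p-values do not allow for that choice, so the calls in Rbm20 are a description. The largest difference, named because it was the most extreme of the 19, was at 53880001 to 53890000. It held 40.4 CPM in the other libraries and 109 CPM in the replicates, a log2 ratio of -1.43 (exact 95% interval -1.91 to -0.99, adjusted p = 6.04e-11, exact binomial test).

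**Figure D4:**
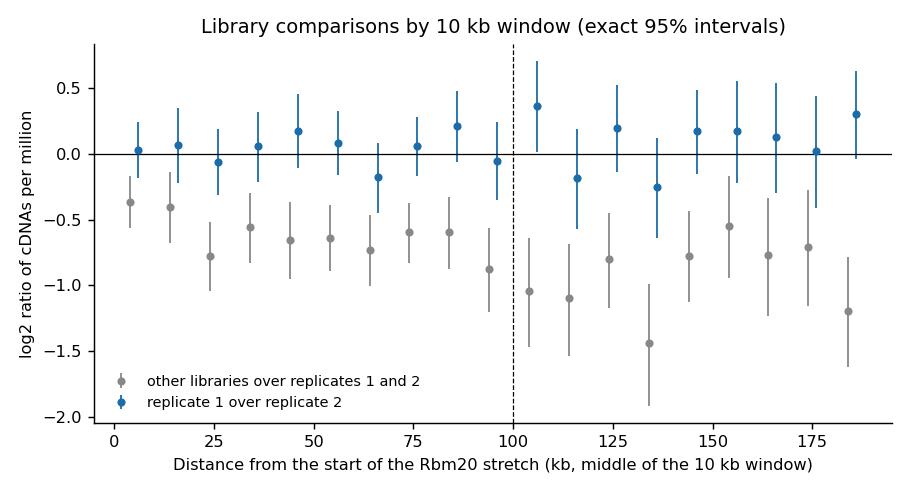
Log2 ratio of CPM (vertical axis) in each 10 kb window of Rbm20 against the distance of its middle from the start of the stretch in kb (horizontal axis), for the other libraries over replicates 1 and 2 (grey) and for replicate 1 over replicate 2 (blue); bars are exact 95% intervals and the dashed line is the border at 100 kb. The grey points lie between -1.43 and -0.36, all below 0, and the blue points lie between -0.25 and 0.36.

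The other libraries were also weighted more to the 5' side. They had 1584 cDNAs in the first 100 kb and 578 in the rest, a density ratio of 2.60, against 2.09 in the replicates together. The first 100 kb held 73.3% of their cDNAs, against 68.8% in the replicates, an odds ratio of 1.24 (95% interval 1.12 to 1.38, p = 4.15e-05, two-sided Fisher's exact test). That p, too, covers counting error alone, since cDNAs were the units and the 3 other libraries were pooled, and the border was set with counts of these tracks known. The middle cDNA lay 64.2 kb from the start. By window, the median log2 ratio of the other libraries over the replicates was -0.62 in the first 100 kb (10 windows, -0.88 to -0.36) and -0.80 in the rest (9 windows, -1.43 to -0.55). Library and any difference in the cells cannot be told apart here.

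**Figure D5:**
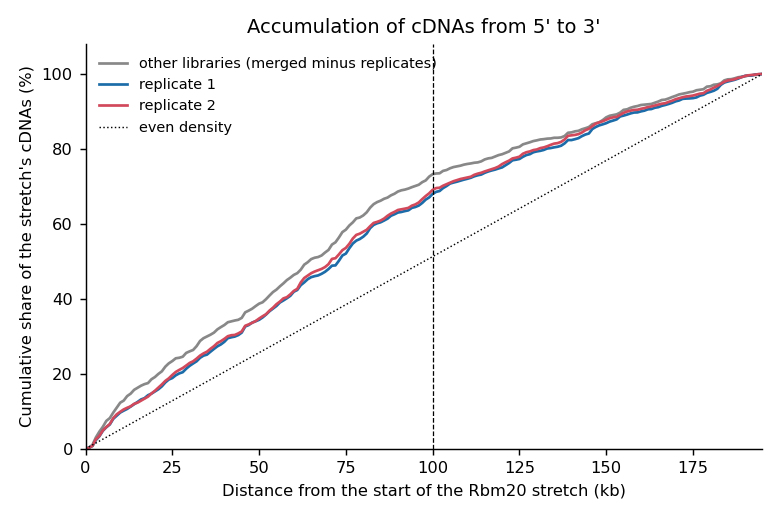
Cumulative share of the Rbm20 cDNAs (%, vertical axis) from the 5' to the 3' end of the stretch in kb (horizontal axis) for the other libraries, replicate 1 and replicate 2; the dotted line is even density and the dashed line the border at 100 kb. At the border the curves stand at 73.3%, 68.0% and 69.1%, and the curve of the other libraries lies above both replicates there.

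Set beside the 5 tiles most similar in level, Rbm20 had the most bins covered and the smallest share of cDNAs in its highest bins. The 5 tiles of that length nearest in mean CPM were on chromosome 5 from 93210001 (plus strand, 2792 ± 21.8 CPM), on chromosome 14 from 55575001 and from 55380001 (minus strand, 3520 ± 117 and 2544 ± 165 CPM), on chromosome 2 from 76440001 (minus strand, 3842 ± 240 CPM) and on chromosome 13 from 12090001 (minus strand, 2270 ± 8.38 CPM; SD, n = 2). Both replicates had cDNAs in 194 bins of 1 kb in Rbm20, against 187, 55, 38, 105 and 122 in these tiles. The 10 highest 1 kb bins held 13.9% of the cDNAs of Rbm20, averaged over the replicates, against 15.8%, 94.5%, 74.5%, 17.3% and 21.5%. The tiles follow a fixed grid and were not matched to genes, while the stretch of Rbm20 was fitted to its signal. No test was made.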

How the data were processed

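In each deposited iCLIP track a nucleotide carries a signed score: per the file headers and the values, its size is the number of cDNAs and its sign the strand. The authors did not scale it to library size. The file headers name mm9 and annotation Ensembl 59, and the submitters' processing notes name Bowtie 0.10.1 for these samples. The collapse of duplicate cDNAs and the handling of reads with several matches are not stated. Every replicate position was in the merged track, whose value was nowhere below the sum of the replicates.

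cDNAs on the plus strand of the stretch were counted and divided by the library total (CPM), with Python 3.11.15, numpy 2.4.6, pandas 2.3.3 and scipy 1.17.1. Windows of 10 kb with at least 50 cDNAs were tested across the whole genome. The comparison of the replicates was simulated in 13920 windows, of which 100 were changed 4-fold and 100 were changed 2-fold. Of the changed windows 79% (4-fold) and 30% (2-fold) were called, and 1 unchanged window was called too. For the other libraries, with 21841 simulated windows and as many changed, the shares were 79% and 34%, and 7 unchanged windows were called. The simulated counts held counting error alone, so these values do not show how the test treats variation between libraries. The shares are over windows of all depths from 50 cDNAs up, and the windows of Rbm20 all lie well above that minimum. Coordinates are 1-based in mm9.

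The gene, border and lists were chosen with earlier results of these data known. Named were the 5 highest and 5 lowest bins of 5 kb, the 10 largest clusters (2 more, tied at the tenth place, were added after their values were seen), the positions with the 10 highest merged counts with ties, and the 5 nearest tiles. Other bins and positions were chosen after their values were seen. No mm9 sequence was used here, so no motif or sequence is given. The heart samples were left out.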

Additional observations from a re-analysis of the deposited data

How the results depend on the processing

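The level of 3094 CPM moved to 3231 without the 10 strongest windows in the total and to 2749 in the merged track, and ranged from 3030 to 3158 when a replicate was left out. The density ratio of 2.07 was 2.0 without positions of 3 or more cDNAs and 2.18 in the merged track. It ranged from 2.02 to 2.12 with a replicate left out, and was 2.02 and 2.01 with the border moved 10 kb upstream and downstream. Recurrence was 50.1% within 5 nt, 65.9% within 10 nt and 21.3% for positions with 2 or more cDNAs. The number of clusters, 197, depended on its limits: 50 with a gap of 5 nt, 322 with 30 nt, 675 with at least 5 cDNAs and 41 with at least 20. Windows called between the replicates were 0 under all 5 alternatives run. Against the other libraries 30 of 39 windows of 5 kb were called, and 27 of 102 windows of 1 kb, all lower. With 10 kb windows all 19 were called under each alternative, and from 19 to 19 with a replicate left out. The odds ratio of 1.24 ranged from 1.23 to 1.29 with a replicate left out. No paired analysis was possible because the iCLIP replicates form 1 group and the numbered heart samples were not analysed here. Most positions hold 1 cDNA, which limits statements on single nucleotides.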
